A study of Arabidopsis thaliana with 4 samples.

Results

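Calmodulin-like proteins are calcium sensors of plants. Stress, touch and microbial signals raise calcium in the cytosol, and these proteins bind it through EF-hands, helix-loop-helix folds whose loop holds the ion. Unlike the calcium-dependent protein kinases they carry no enzyme domain, and they act by binding other proteins. Several of their genes are known in Arabidopsis for transcripts that respond quickly to touch, wounding, pathogens or salt.

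The genes described here are the 10 whose probe set met a fixed choice: 7 with an annotated symbol that begins with CML, together with AT5G39670, AT3G47480 and TCH3, with 1 value per gene. Apart from TCH3 they are 9 of the 13356 genes that the platform annotation names through a probe set of 1 gene. The last 3 were selected on their measured difference between rsa3-1 and wild type in these arrays, so their values are given as a description, without a test. The other 7 were taken by symbol, whatever their values. TCH3 (AT2G41100, which RefSeq also calls CML12) is read from probe set ID_REF.267083_at, which the annotation used here does not list, so its link to TCH3 comes from the choice of the genes and was not checked against probe sequences. Every member had 1 probe set. RefSeq gives a CML name to 14 genes, of which 8 have a named probe set in this annotation. One of these 8, AT1G76640, is annotated on the array by its locus alone and is therefore not a member, and 5 more that are not members were not analysed here. RefSeq gives no CML name to AT5G39670 or AT3G47480, so the 14 need not be the whole family. The share of the family that was measured is not known here.

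Transcripts were measured in whole seedlings of Arabidopsis thaliana on Affymetrix ATH1 arrays, which report a transcript through a set of short oligonucleotides. Wild type and rsa3-1 seedlings, 6 days old when the treatment began, were both kept on 120 mM NaCl for 24 h, with 2 arrays per genotype that the design text calls biological replicates. Both genotypes carry the gl1 mutation of Columbia, which removes leaf hairs, and a luciferase transgene under the stress-inducible RD29A promoter. The rsa3-1 mutation lies in a xyloglucan galactosyltransferase gene. The sources used here do not say whether the line was backcrossed or how many plants were pooled per array. No probe set is named for that galactosyltransferase gene in the annotation used here, so the genotype labels were not checked against it. Since all 4 arrays had salt, the genotypes are compared under salt and no salt response was measured.

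Values are log2 values from robust multi-array average (RMA) processing, and a difference of 1 is a 2-fold change. Array medians ran from 6.46 to 6.51 and the lowest values from 2.57 to 2.61. Of 45 bacterial and phage control probe sets, 44 had their top value in wild type replicate 1, a median of 0.94 above the mean of the other arrays, so results for the members that stand out are also given without it. The labelled tissue is whole seedlings. The photosynthetic genes measured (4 of 12 listed) had values of 11.94 to 13.53. Among the root genes measured (3 of 8 listed), PYK10, a beta-glucosidase of endoplasmic reticulum bodies, had values of 13.38 to 13.54. EXPA7 had values of 6.49 to 7.0 and EXPA18 of 6.8 to 7.3. No marker passed the test over all probe sets in limma, while 1 shoot and 1 root marker had an unadjusted p under 0.05. The mean of the shoot markers ran from 12.83 to 12.86 in wild type and 12.95 to 12.99 in rsa3-1. The mean of 3 root markers ran from 9.18 to 9.25 and from 8.9 to 9.02; the part of these shifts in the results below was not tested.

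In rsa3-1 under salt, 4 calmodulin-like genes had more than 2-fold higher transcript values than in wild type: TCH3, AT5G39670, AT3G47480 and CML41. Of all probe sets, 0.343% were at least 2-fold higher. The other 6 members differed by 0.02 to 0.66 on the log2 scale. All 10 differences were positive, where 10717 of all 22746 probe sets had a positive difference. The differences of CML23 and CML42 changed sign in fits with an array left out. The median over the 10 genes was 0.56, against -0.01 over all probe sets. For the 7 genes taken by symbol alone the median was 0.24. Values of the genotypes did not overlap, with rsa3-1 higher, in 8 of the 10 genes, or 5 of the 7, where 17.8% of all probe sets showed this. Because the genes were chosen with this comparison known, these shares describe the members and are not support for a change of the family. In bulk tissue, a change in the number of cells that hold a transcript and a change in transcript per cell cannot be told apart.

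**Figure D1:**
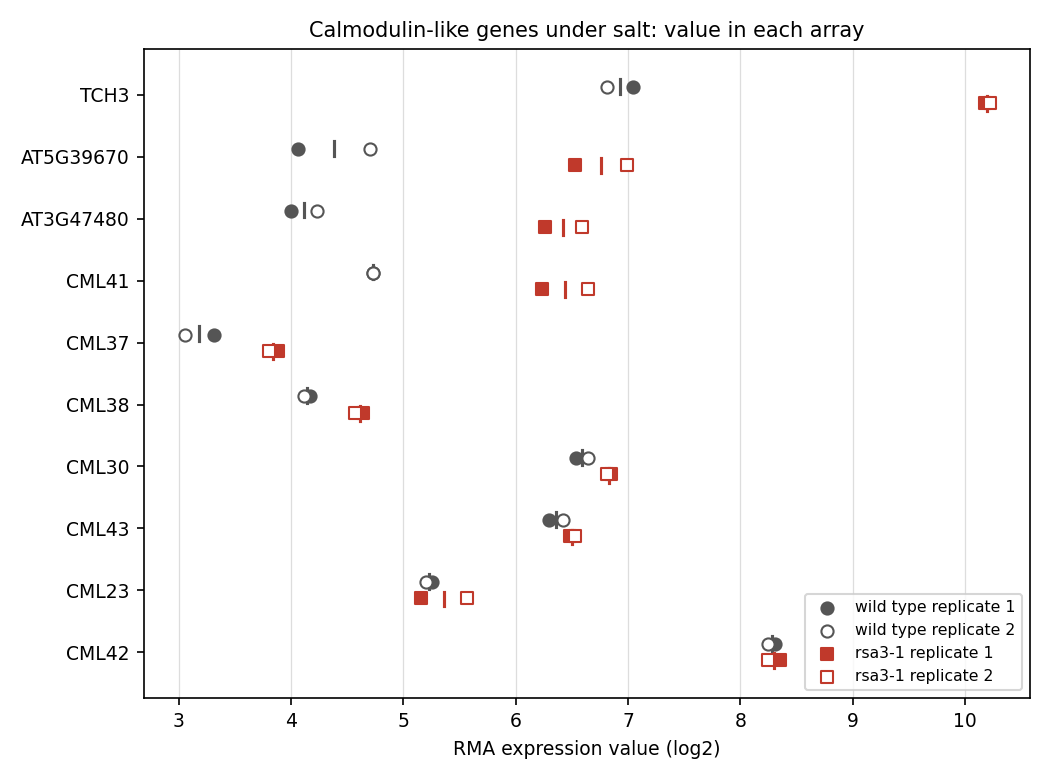
Log2 expression value (horizontal axis) of each calmodulin-like gene in each of the 4 arrays, with circles for wild type, squares for rsa3-1, filled symbols for replicate 1, open symbols for replicate 2 and short lines for the mean of each genotype. The gap between the genotypes is 3.14 in TCH3, 1.83 in AT5G39670, 2.03 in AT3G47480 and 1.5 in CML41, and the genotypes overlap in CML23 and CML42; horizontal positions of different genes are not comparable, because each probe set has its own response.

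TCH3 is the touch-induced calmodulin-like gene that was found through its transcript response to handling, rain and wind. Its value was 7.04 and 6.81 in the wild type arrays and 10.18 and 10.22 in the rsa3-1 arrays. The rsa3-1 arrays lay 0.04 apart, the wild type arrays 0.22 apart, and the genotypes were separated by 3.14. The means were 6.93 ± 0.16 and 10.2 ± 0.03 (SD, n = 2 each). They differed by 3.27 on the log2 scale (standard error 0.11), or 9.66-fold on the linear scale. Of the 22746 probe sets, 6 had a larger positive difference. TCH3 was chosen on this difference, so its rank is a description and not a result. Unlike the other 3 genes, TCH3 was well within the range of the array in wild type, at or above the array median in both arrays. Without wild type replicate 1 its difference was 3.38, and with each array left out in turn it ran from 3.16 to 3.38.

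AT5G39670 and AT3G47480 encode EF-hand proteins for which the RefSeq table gives no CML name. AT5G39670 was at 4.06 and 4.7 in wild type and at 6.53 and 6.99 in rsa3-1. It had the widest spread among the wild type values of the members, 0.65. The lowest rsa3-1 value was 1.83 above the highest wild type value. The means were 4.38 ± 0.46 and 6.76 ± 0.32 (SD, n = 2 each). The log2 difference was 2.38 (SE 0.23), a 5.2-fold change, and it was 2.05 without wild type replicate 1.

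AT3G47480 was at 4 and 4.23 in wild type and at 6.26 and 6.59 in rsa3-1. The 2 genotypes were separated by 2.03, and the arrays lay 0.23 apart within wild type and 0.33 apart within rsa3-1. The means were 4.11 ± 0.16 and 6.42 ± 0.23 (SD, n = 2 each). The log2 difference was 2.31 (SE 0.14), a 4.96-fold change, and it was 2.2 without wild type replicate 1. The lower quartile of the values on each array was 4.32 to 4.38, and both wild type values of AT3G47480 and one of AT5G39670 lie below it. Without detection calls these levels may be background, so the size of either difference is uncertain.

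CML41 encodes a calmodulin-like protein of plasmodesmata, the channels between plant cells, where it is known for a part in callose deposition during defence. Its value was 4.73 in both wild type arrays, against 6.23 and 6.64 in rsa3-1. The rsa3-1 arrays lay 0.41 apart and the lower of them was 1.5 above the wild type arrays. The means were 4.73 ± 0.0014 and 6.44 ± 0.29 (SD, n = 2 each). CML41 rose by 1.71 on the log2 scale (SE 0.14; limma, adjusted p = 0.0026 over all probe sets), a 3.26-fold change with a 95% confidence interval of 2.58 to 4.12. It was the member that passed among the 7 taken by symbol, 0 of which were lower. Over all probe sets, 0.659% passed with a higher value in rsa3-1. With the replicate number as a block CML41 did not pass (limma, adjusted p = 0.058), where 0.185% of all probe sets passed. With each array left out in turn the difference of CML41 ran from 1.5 to 1.91 and the adjusted p from 0.00039 to 0.027, with 1.71 and 0.027 without wild type replicate 1. Its wild type values, under 5, may be background like those of AT5G39670, so the size of the change is uncertain.

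CML37 is known for a part in the response to insect feeding, and CML38 for a role under low oxygen. CML37 was at 3.31 and 3.05 in wild type and at 3.88 and 3.8 in rsa3-1. The genotypes did not overlap, but all 4 values lie near the bottom of the array range and may be background. Its log2 difference was 0.66 (SE 0.12; limma, adjusted p = 0.057), which does not pass; it passed with arrays set to a common median (adjusted p = 0.024), with quantile normalization (0.038) and with trended and robust variance (0.026), and did not pass with any array left out (0.077 to 0.23).

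CML38 was at 4.17 and 4.11 in wild type and at 4.64 and 4.57 in rsa3-1. Its arrays of 1 genotype lay within 0.06 of each other and the genotypes were separated by 0.41. The log2 difference was 0.46 (SE 0.1; limma, adjusted p = 0.1) and did not pass. It lies low on the array like CML37, with all values under 5.

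CML30, CML43, CML23 and CML42 had differences of at most 0.24 on the log2 scale, and none passed in limma (unadjusted p under 0.05 in CML30 alone). CML30, whose protein has been placed in mitochondria, was at 6.54 and 6.64 in wild type, against 6.85 and 6.81 in rsa3-1. Its log2 difference was 0.24 (limma, adjusted p = 0.49), with a 95% confidence interval of 0.01 to 0.47. CML43, a gene known for induction in the defence response to bacteria, was at 6.3 and 6.42 against 6.48 and 6.53.

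CML23 acts with its close relative CML24 in flowering time in Arabidopsis. It was at 5.25 and 5.2 in wild type and at 5.16 and 5.57 in rsa3-1, where the replicates lay on either side of the wild type values. Its difference of 0.14 had a 95% confidence interval of -0.2 to 0.47, which still holds a change of up to 1.39-fold.

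CML42 is known for a role in the branching of leaf hairs, which the gl1 background lacks, and in the response to insect feeding. It was at 8.31 and 8.25 in wild type and at 8.35 and 8.25 in rsa3-1, so the genotypes overlap. The log2 difference was 0.02 with a 95% confidence interval of -0.21 to 0.25, or 0.863-fold to 1.19-fold.

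**Figure D2:**
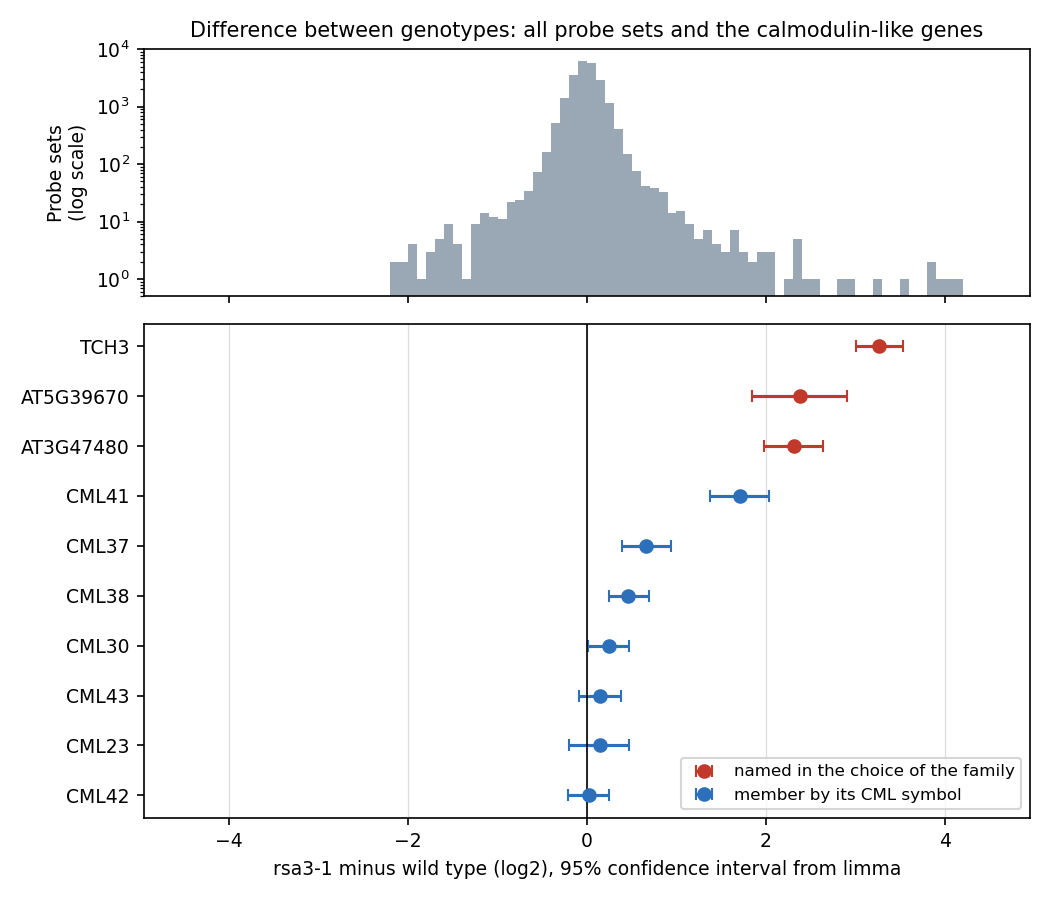
Upper panel, number of probe sets (log scale) by log2 difference of rsa3-1 minus wild type over all 22746 probe sets. Lower panel, the difference of each calmodulin-like gene on the same axis with its 95% confidence interval from limma. Red marks the 3 genes included by name, which were chosen on this difference, so their intervals are no test. Blue marks the 7 taken by symbol. CML41 at 1.71 stands apart from the other blue points, which lie between 0.02 and 0.66.

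On the chromosome, TCH3 has another measured gene close by. In the RefSeq gene order AT2G41090 is the next protein-coding gene on one side of TCH3, with 1 non-coding gene between them. RefSeq gives AT2G41090 no CML name, and it is in none of the calcium lists below. The counts for the members and for those lists therefore leave AT2G41090 out, and whether it is itself a calmodulin-like gene was not checked. It was at 8.93 and 8.61 in wild type and at 9.6 and 10.07 in rsa3-1, so rsa3-1 was higher with no overlap. AT2G41090 rose by 1.06 on the log2 scale (SE 0.17; limma, adjusted p = 0.04), or 2.09-fold. It no longer passed with wild type replicate 1 left out (difference 1.22, adjusted p = 0.097), nor with wild type replicate 2 left out (difference 0.91, adjusted p = 0.18), nor with rsa3-1 replicate 2 left out (difference 0.83, adjusted p = 0.11). Whether the probes of TCH3 and AT2G41090 detect each other's transcripts was not tested, since probe sequences were not used here. CAM2, a calmodulin gene on the other side of TCH3, has no named probe set.

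The other measured neighbours did not pass. AT3G47490, next to AT3G47480, was at 7.12 and 7.19 in wild type, against 7.25 and 7.12 in rsa3-1, a difference of 0.04 (limma, adjusted p = 0.97). No gene within 2 places of AT5G39670 has a named probe set. AT1G76640, which lies beside CML38 and which RefSeq also calls CML39, a name it gives to CML37 as well, was looked at after its values were seen. It was at 4.19 and 4.36 in wild type, against 4.27 and 4.26 in rsa3-1, a difference of -0.01 with a 95% confidence interval of -0.26 to 0.23. On the other side of CML38, AT1G76660 differed by -0.05.

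**Figure D3:**
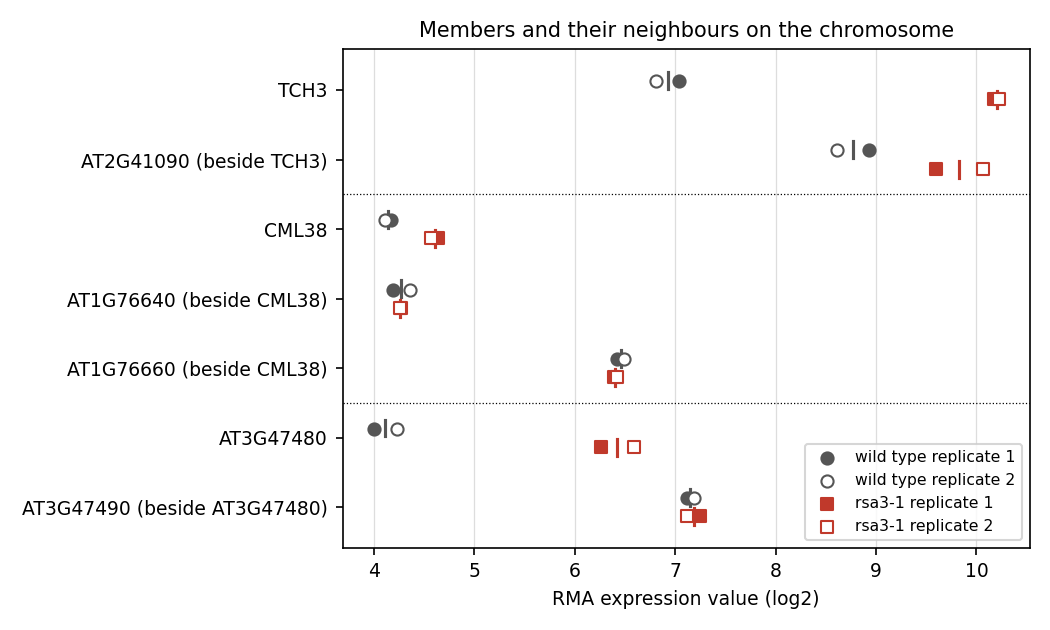
Log2 expression value (horizontal axis) in each array for 3 calmodulin-like genes and the genes beside them on the chromosome, with circles for wild type, squares for rsa3-1, filled symbols for replicate 1, open symbols for replicate 2 and short lines for means. AT2G41090 beside TCH3 is higher in rsa3-1 with no overlap, while values of AT1G76640 and AT3G47490 overlap between the genotypes.

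For each of the 3 genes included by name, the 5 other named genes with the nearest array profiles were listed. Likeness was taken as the root mean square distance over the 4 arrays, after each gene was centred on its own mean, among 13504 probe sets that name 1 gene and belong to none of the 10 members. For AT3G47480 the nearest was RING1, a RING-type ubiquitin ligase, at a distance of 0.102, followed by the chitinase family gene AT2G43620 at 0.122, AT2G18690 at 0.164, AT1G56060 at 0.172 and AT5G52750, which encodes a heavy-metal-associated domain protein, at 0.306. The same 5 genes were nearest to AT5G39670, with RING1 first at 0.256 and AT5G52750 last at 0.404. AT5G39670 and AT3G47480 lay 0.159 apart.

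For TCH3 the nearest gene was AT2G25510 at 0.315, which was at 8.13 and 7.68 in wild type, against 11.48 and 11.93 in rsa3-1. AT2G43620 at 0.492, RING1 at 0.529, AT2G18690 at 0.6 and the lectin gene AT5G03350 at 0.636 came next. Their log2 differences were 2.31, 2.25, 2.08 and 2.08, against 3.27 for TCH3. The distance is set mainly by the size of the genotype difference, since 2 arrays per genotype leave little else to compare. Of the members, CML41 was 0.313 from AT3G47480 and 0.407 from AT5G39670, and CML42 was 1.221 from AT5G39670.

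**Figure D4:**
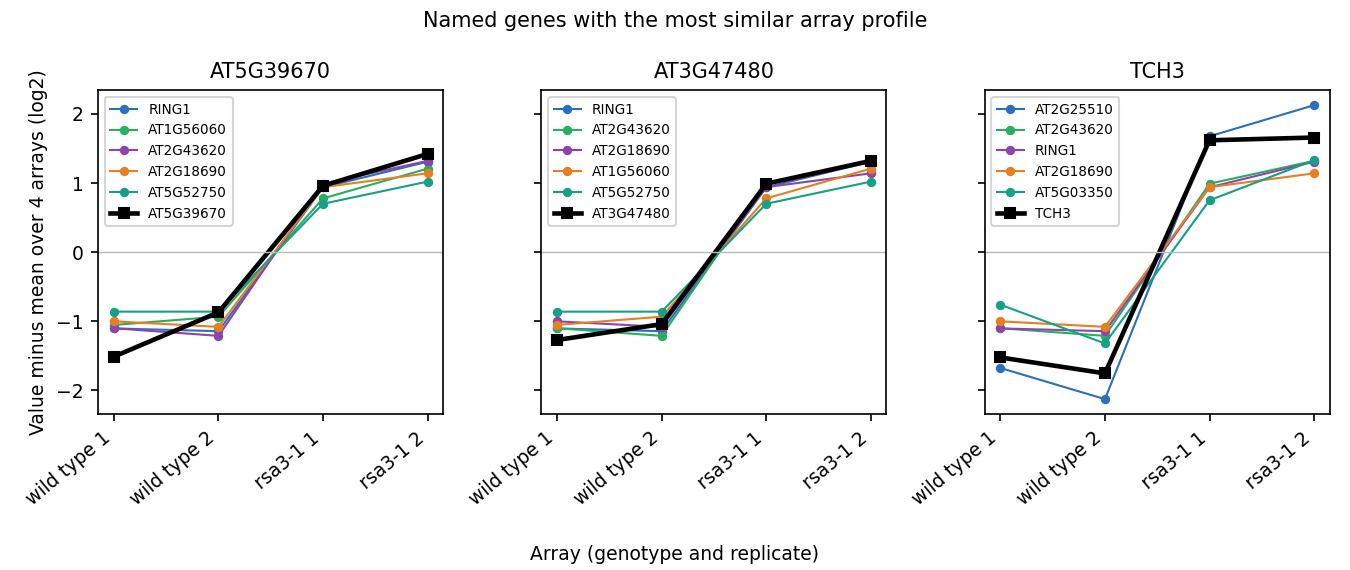
Log2 value minus the gene's mean over the 4 arrays (vertical axis) for AT5G39670, AT3G47480 and TCH3 in black and, in each panel, the 5 named genes other than the members with the smallest root mean square distance; lines only join the points of a gene. In every panel all genes shown are below 0 in both wild type arrays and above 0 in both rsa3-1 arrays.

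Of the rest of calcium signalling, 2 of 16 lists held genes with a named probe set. The lists covered sensors (calmodulins, calcineurin B-like proteins), kinases, channels, pumps, exchangers, annexins, touch genes and calmodulin-binding targets, with 202 entries in RefSeq, and 23 genes were measured. Over all probe sets 0 of the 23 passed in limma, where 1.13% of all probe sets passed, and 4 had an unadjusted p under 0.05, 2 higher and 2 lower, against 9.68% of all probe sets. Their differences ran from -0.31 to 0.3 with a median of 0.02.

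Glutamate receptor-like proteins are calcium-permeable channels, and 8 of 20 were measured, with a median difference of 0.07. GLR1.4 was at 4.82 and 4.91 in wild type, against 5.17 and 5.15 in rsa3-1, a difference of 0.3 (limma, adjusted p = 0.35). ATGLR1.2 had a difference of 0.25 (limma, adjusted p = 0.45) at values under 4. The channels GLR3.3 and GLR3.6, known for carrying wound signals between leaves, differed by 0.1 and 0.02.

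IQ67-domain proteins bind calmodulins through IQ motifs and are known for links to microtubules, and 15 of 33 were measured, with a median difference of -0.04. IQD22 was at 7.13 in both wild type arrays and at 6.77 and 6.86 in rsa3-1, a difference of -0.31 (limma, adjusted p = 0.33). The gene iqd15 had a difference of -0.31 as well (limma, adjusted p = 0.42). The calcium-dependent kinases, calmodulins, calcineurin B-like proteins and their kinases, annexins, pumps and exchangers were not analysed here, because no probe set is named for them in the annotation used.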

How the data were processed

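The deposited values are log2 values that the authors made with RMA, per the submitters' processing notes; the sources used here name no software version or probe set definition. RMA normalizes between arrays, which removes a change shared by most transcripts, and compresses differences among dim probe sets. Values were used as deposited, with 64 array controls left out of 22810 probe sets. The annotation names 1 gene for 13513 probe sets, several for 503 and none for 8730; 13436 of the first matched RefSeq (assembly TAIR10.1) by gene ID. No coordinates are printed, since the build behind the annotation is not stated.

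Differences are rsa3-1 minus wild type from limma 3.58.1 in R 4.3.3 (lmFit, eBayes with 5.35 prior degrees of freedom, two-sided), with Benjamini-Hochberg adjustment over 22746 probe sets at 0.05; 2 arrays per genotype limit the precision. Python 3.11.15, pandas 2.3.3 and matplotlib 3.10.9 made the lists and figures. Members, lists and tests were chosen with earlier results of these data known. Genes named in the text are all members, the 5 nearest profiles and the neighbours within 2 places of the 3 genes included by name, and the 2 genes of smallest p per calcium list, with GLR3.3, GLR3.6 and the neighbours of CML38 added after their values were seen. The fit was first run on simulated data of known changes. These data were drawn from its own variance model, so they cannot show how it behaves on these arrays. Alternatives covered scaling, a filter, the variance model, array weights, the replicate block, each array left out, probe set averaging, a 2-fold minimum and other memberships.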

Additional observations from a re-analysis of the deposited data

How the results depend on the processing

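Among the 7 genes taken by symbol, counted apart from the 3 included by name after seeing the data, 1 passed (CML41), where 1.13% of all probe sets passed. The count was 2, with CML37 added, under a common median (1.46% of all probe sets), quantile normalization (1.43%) and trended and robust variance (1.55%), settings that also pass more probe sets overall. It was 1 with each array left out, where 0.448% to 0.976% of all probe sets passed. The median difference of 0.56 became 0.97 with a filter at a mean log2 value of 5, which leaves 8 members; CML37 and CML38 drop out, while AT5G39670, AT3G47480 and CML41 stay through their rsa3-1 values. It was 0.24 over the 7 genes alone and 0.46 with AT1G76640 added, also chosen after seeing the data. With each array left out it ran from 0.49 to 0.64. No measured gene of the other calcium lists passed under any alternative to the limma fit that was run. With the replicate number as a block, CML41 did not pass (adjusted p = 0.058, difference 1.71), nor did AT2G41090 (0.29), while 42 of all probe sets (0.185%) passed against 256. Deviations of equal-numbered arrays had a correlation of 0.013. With 2 arrays per genotype, this value cannot show whether equal-numbered arrays shared plants or a day. The numbers are not taken as pairs because no label says that they are. The sign of CML42 turned to -0.03 without rsa3-1 replicate 1 and -0.01 without wild type replicate 2, in a range of -0.03 to 0.07 with each array left out, and that of CML23 to -0.07 without rsa3-1 replicate 2, in a range of -0.07 to 0.34; the cause was not tested. With an array left out, the lone array is assumed to vary like the other genotype. Without detection calls, differences that start from low values, as in CML37, CML38, CML41, AT3G47480 and AT5G39670, have an uncertain size.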
